A study of Rattus norvegicus with 3 samples.

Results

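Bovine-named miRNAs were followed in 3 small-RNA libraries of extracellular vesicles (EVs) from rat astrocytes. The names carry the prefix bta-, for Bos taurus. Of the 1480 rows that the libraries share, 179 were bovine-named; 12 rows of 5 names, those of miR-1246, miR-2887 and miR-2478, were left out. The remaining 167 rows were summed by the name without its isoform suffix, which gave 117 of the 891 miRNA names in all. Of these, 29 names have a rat-named row of the same miRNA number and 88 have none. The rule uses names and no count, though it was written with earlier results of these data known.

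The cells were primary astrocytes of neonatal wild-type rats, the glial cells that support neurons. One culture was left untreated, one received IL-1α, TNF-α and C1q (the IL-1α mix), and one received IL-4 and C1q (the IL-4 mix), from day 6 of culture for 24 h, and EVs were taken from the conditioned medium. Each condition has 1 library, and all 3 carry the same batch label. The labels do not say whether the medium held serum or how many animals a culture came from. They name EV RNA as the library input, but also describe extraction from the harvested cells, which leaves the source in some doubt. With 1 library per condition there is no test between conditions, and differences between cultures, libraries and treatments cannot be told apart.

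A miRNA is a short RNA that pairs, mainly through its seed near the 5′ end, with messenger RNAs and lowers their output. In a miRNA name the prefix gives the species of the database entry, and the number with any letter gives the miRNA. Names are split here by the number alone. Bovine and rat names that are compared may thus differ in letter, as bta-miR-411c-3p and rat miR-411-3p do. Many mature miRNAs are identical across mammals, so a bta- prefix shows which entry a read was assigned to and not which animal it came from. The miR-2284/miR-2285 family is expanded in ruminants. Fetal bovine serum, a common supplement of culture medium, carries bovine EVs and miRNAs. Whether serum RNA contributed to these libraries was not tested.

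Rat miRNAs that share a number with the abundant bovine names are shown because the results compare bovine-named and rat-named rows of the same number. Bovine sequences were not in the sources used here, so bovine and rat entries were not compared base by base. The mature sequences are from RefSeq, build GRCr8, and capitals mark the seed, bases 2 to 8.
rno-miR-380-3p: uAUGUAGUaugguccacaucu
rno-miR-450b-5p: uUUUGCGAuguguuccuaaua
rno-miR-146a-5p: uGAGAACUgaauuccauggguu
rno-miR-28-3p: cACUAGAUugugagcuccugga
rno-miR-665: aCCAGGAGgcugaggucccuua
rno-miR-411-3p: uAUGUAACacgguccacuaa
rno-miR-378a-3p: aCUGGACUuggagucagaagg
rno-miR-339-5p: uCCCUGUCcuccaggagcucacg
rno-miR-92a-3p: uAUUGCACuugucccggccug
No seed occurs more than once among them. The RefSeq rat table holds a mature miRNA for 19 of the 21 numbers that have a rat-named row, and for 0 of the 38 numbers that have none.

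The libraries held 6318839 miRNA-named counts (untreated), 12327301 (IL-1α mix) and 7779718 (IL-4 mix). Levels are given as CPM, the count per 1000000 miRNA-named counts. Ratios have exact 95% intervals that cover counting error only. The 13 miRNAs on a list labelled glial and neural were all present. They summed to between 562981 and 595802 CPM, of which miR-21-5p alone was 357921 to 386922 CPM. How particular the listed miRNAs are to these cells was not tested, so the sum does not measure glial content. In each comparison 11 of the 13 had a lower CPM than untreated. The 1 called higher in each was miR-143-3p, at 2.52-fold and 4.04-fold. miR-124-3p was called lower in both, 3.91-fold and 3.56-fold, and miR-9a-3p with the IL-4 mix alone, 2.13-fold. The median log2 ratios of the 13 to untreated were −0.43 and −0.47. The median log2 ratio over all names with at least 50 counts was −0.06 with the IL-1α mix and −0.16 with the IL-4 mix.

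Bovine-named miRNAs made up more of the untreated library than of either treated one. Their summed level was 1718 CPM in the untreated, 248 CPM in the IL-1α mix and 324 CPM in the IL-4 mix library. These are 0.172%, 0.0248% and 0.0324% of the miRNA-named counts. The share was 6.92-fold lower with the IL-1α mix (6.65 to 7.21) and 5.31-fold lower with the IL-4 mix (5.09 to 5.55). The treated libraries lay much closer to each other, with a ratio of the IL-4 mix to the IL-1α mix of 1.30 (1.24 to 1.37).

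The number of bovine names seen also differed. Of the 117 names, 113 were counted without treatment, 44 in the IL-1α mix library and 43 in the IL-4 mix library. The deepest library, that of the IL-1α mix, thus held fewer bovine names than the shallowest, the untreated one. Of the 499 rat-named miRNAs, 442, 465 and 439 had counts in the same order. Counts in 61 bovine names came from the untreated library alone, and 29 names had counts in every library. Over all 891 names, 162 had counts in the untreated library alone and 564 in every library, and over the rat-named ones 21 and 403. The 4 names with no untreated counts were bta-mir-148c-p3, bta-miR-150, bta-miR-1434-5p and bta-mir-1248-1-p3, none of them above 15 counts anywhere. Counts under 5 are rare in these data, so a 0 may stand for a count of up to about 5.

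The 88 bovine names with no rat row summed to 821 CPM in the untreated library, 92.7 CPM with the IL-1α mix and 122 CPM with the IL-4 mix. Against untreated, the treated sums were 8.85-fold (8.30 to 9.45) and 6.76-fold (6.30 to 7.25) lower. In each comparison 86 of the 88 names had a lower CPM than in the untreated library. Of the 29 names with a rat row, 23 had a lower CPM with the IL-1α mix and 22 with the IL-4 mix. Over all 891 names, 529 and 550 had a lower CPM in the same order, and over the 499 rat-named ones 234 and 254. Those 29 names summed to 898, 156 and 202 CPM in the same order. The falls were 5.77-fold (5.48 to 6.08) and 4.44-fold (4.20 to 4.70), less than without a rat row. That order depends on the split: where the rat name had to share number, letter and arm, the falls were 7.29-fold with a counterpart and 6.65-fold without one for the IL-1α mix, and 5.56-fold and 5.13-fold for the IL-4 mix.

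A name was called lower or higher where its share differed at least 2-fold, the interval left out 1 and the higher library held at least 50 counts. Among all miRNA names, 21.2% were called lower and 13.7% higher with the IL-1α mix, and 23.2% and 13.3% with the IL-4 mix. Among rat-named miRNAs the shares were 12.5% lower and 15.4% higher, and 15% and 15.5%. Of 10 bovine names with a rat row, 7 were called lower and 1 higher with the IL-1α mix. Of 9 such names with the IL-4 mix, 7 were lower and 0 higher. All 15 names tested without a rat row were called lower in both comparisons. Of the 25 names that reached 50 counts, 14 did so only in the untreated library and so had to be lower elsewhere, which is why these counts are a description. They were 11 of the 15 names without a rat row and 3 of the 10 with one, so the calls do not compare the sets. The remaining 11 names reached 50 counts in a treated library, bta-miR-92a only there. The 92 names under 50 counts are accounted for below.

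The ruminant miR-2284/miR-2285 family supplied 46 of the 88 names with no rat row. It summed to 506, 57.2 and 74.6 CPM in the untreated, IL-1α mix and IL-4 mix libraries. All 46 names were counted without treatment, against 11 and 12 in the treated libraries. Over all 891 names, 88.6%, 77.4% and 72.5% were counted in the untreated, IL-1α mix and IL-4 mix libraries. Of the 46 names, 41 were under 50 counts in every library. Some held equal fractions of a count, such as 1.67 untreated in bta-miR-2284aa and in bta-miR-2284v. Reads may thus be shared, and the names are not separate observations. The family was 8.85-fold lower with the IL-1α mix (8.15 to 9.61) and 6.79-fold lower with the IL-4 mix (6.21 to 7.43), with all 46 names lower in both. The other 42 names with no rat row were 8.86-fold (7.99 to 9.85) and 6.71-fold (6.00 to 7.53) lower. The family and the rest of the set thus differed from untreated by factors whose intervals overlap.

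Within the family, bta-miR-2284x was the most abundant name, with 2115 counts in the untreated, 524 in the IL-1α mix and 433 in the IL-4 mix library, or 335, 42.5 and 55.7 CPM. It fell 7.87-fold (7.15 to 8.68) and 6.01-fold (5.42 to 6.68), and it held 40.8%, 45.8% and 45.8% of the counts of names with no rat row. Its share of the set therefore changed little while the set itself fell. bta-mir-2285af-1-p5, named from a hairpin arm, had 373, 89 and 62 counts and was 8.18-fold and 7.41-fold lower. bta-miR-2284ab had 122, 30 and 30 counts, bta-miR-2284y had 82, 14 and 14, and bta-miR-2284w had 68, 15 and 15. These were lower by 7.93-fold to 11.4-fold with the IL-1α mix and by 5.01-fold to 7.21-fold with the IL-4 mix, with the untreated library highest for each.

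Outside the family, bta-miR-660 led, with 434, 106 and 87 counts. Its human counterpart lies in a miRNA cluster on the X chromosome. It was 7.99-fold (6.45 to 9.97) and 6.14-fold (4.87 to 7.82) lower, close to bta-miR-2284x. bta-miR-507-3p had 177, 36 and 21 counts, bta-miR-6529a had 164, 28.5 and 23.5, and bta-miR-3431 had 135, 23 and 24. Each of them was highest in the untreated library. bta-miR-11987 had 94, 23 and 21 counts, bta-miR-885 had 73.5, 10 and 6, and bta-miR-432, a member of an imprinted miRNA cluster in mammals, had 74, 10 and 21. bta-miR-432 was 14.4-fold lower (7.43 to 31.3) with the IL-1α mix and 4.34-fold lower (2.64 to 7.42) with the IL-4 mix, with its fewest counts in the IL-1α mix library.

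Names at both ends of the range stood apart. bta-miR-197 had 140 untreated counts and bta-miR-1307 had 109, and neither was counted after treatment. Against the floor of 5 counts per library, bta-miR-197 was at least 54.6-fold and 34.5-fold lower and bta-miR-1307 at least 42.5-fold and 26.8-fold lower. bta-miR-11980 fell least, with 163, 137.5 and 93.5 counts, 2.30-fold (1.83 to 2.91) and 2.13-fold (1.65 to 2.78) lower. The interval of a name held the ratio of bta-miR-2284x for 12 of the 15 names with the IL-1α mix, bta-miR-2284x itself among them, and for 10 of 15 with the IL-4 mix. The exceptions were bta-miR-11980, bta-miR-197 and bta-miR-1307 in both, and bta-miR-507-3p and bta-miR-885 with the IL-4 mix. Among the 10 names with a rat row the interval held that ratio for 5 in each comparison. Intervals at low counts are wide and hold it more easily.

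**Figure D1:**
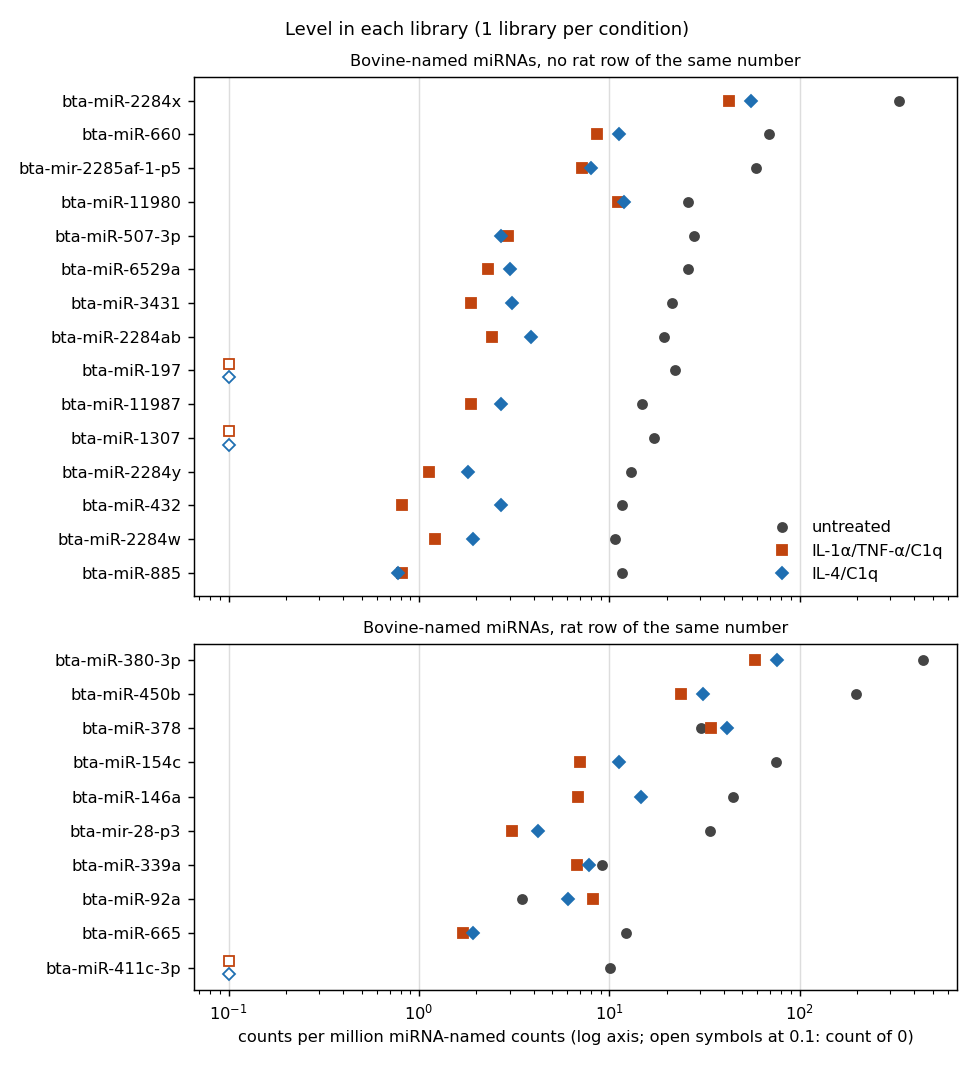
CPM (log axis) of the 25 bovine names with at least 50 counts in the highest library, one symbol per library; open symbols at 0.1 stand for a count of 0. The untreated library is highest in every name of the upper panel, while in the lower panel bta-miR-378 and bta-miR-92a are lowest there. In the upper panel 11 of 15 names reached 50 counts only in the untreated library, against 3 of 10 in the lower one.

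Among names with a rat row, bta-miR-380-3p and bta-miR-450b held most counts. bta-miR-380-3p, whose rat counterpart lies in the Dlk1-Dio3 imprinted cluster, had 2806, 719 and 589 counts, or 444, 58.3 and 75.7 CPM. It was 7.61-fold (7.01 to 8.28) and 5.87-fold (5.37 to 6.42) lower. bta-miR-450b, of an X-linked cluster, had 1244, 294.5 and 240.5 counts and was 8.26-fold (7.26 to 9.41) and 6.38-fold (5.55 to 7.36) lower. Both were high only in the untreated library, and their falls lay close to that of bta-miR-2284x, which has no rat row.

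bta-miR-154c, another name of the imprinted cluster, had 473, 87 and 88 counts and fell 10.6-fold (8.42 to 13.5) and 6.62-fold (5.26 to 8.41). bta-mir-28-p3 had 213, 38 and 33 counts and fell 10.9-fold (7.72 to 15.9) and 7.95-fold (5.49 to 11.8). bta-miR-665 had 77, 21 and 15 counts and fell 7.15-fold (4.37 to 12.2) and 6.32-fold (3.60 to 11.8). All these names were highest in the untreated library. bta-miR-411c-3p had 64 counts there and 0 after either treatment, at least 25.0-fold and 15.8-fold lower. bta-miR-146a, whose number is that of an inflammation-induced miRNA that restrains NF-κB signalling, had 281, 84 and 114 counts and fell 6.53-fold (5.10 to 8.43) and 3.03-fold (2.43 to 3.81).

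The remaining 3 abundant names did not follow. bta-miR-378 had 191, 423 and 323 counts, or 30.2, 34.3 and 41.5 CPM, with log2 ratios of 0.18 and 0.45. bta-miR-339a had 58, 83 and 61 counts and log2 ratios of −0.40 and −0.20. bta-miR-92a, of the miR-17-92 cluster, had 22, 101 and 47.5 counts. It was called higher with the IL-1α mix at a log2 ratio of 1.04, and its log2 ratio was 0.66 with the IL-4 mix. bta-miR-378 made up 3.37% of the set in the untreated library and 22.1% and 20.5% in the treated ones, while bta-miR-380-3p went from 49.5% to 37.5% in both.

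**Figure D2:**
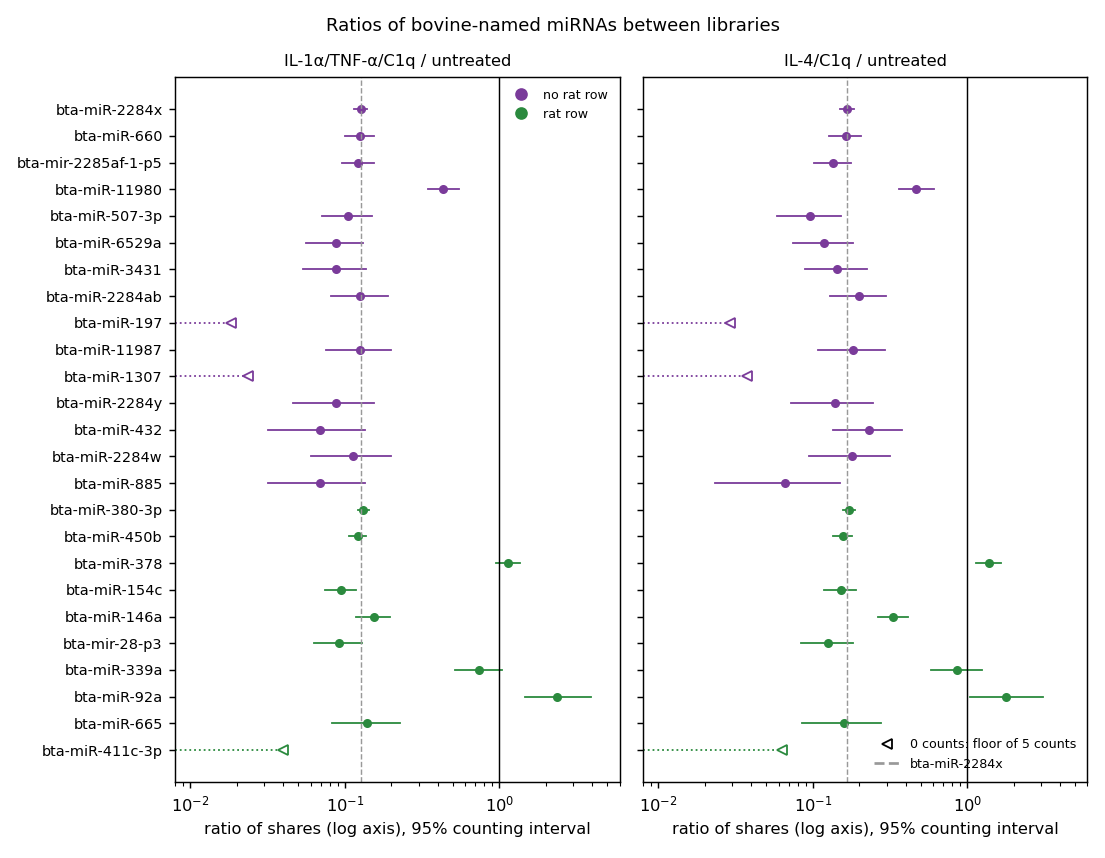
Ratio of each treated library to the untreated one for the 25 names (log axis), with exact 95% intervals for counting error; open triangles mark names at 0 after treatment, drawn at the floor of 5 counts. Names with no rat row lie mostly near bta-miR-2284x, which was 7.87-fold and 6.01-fold lower. Of the 10 names with a rat row, 5 have intervals that hold its ratio in each comparison. Nearest to or above no change are bta-miR-11980, bta-miR-339a, bta-miR-378 and bta-miR-92a.

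The rat-named rows of the same number moved differently. Rat miR-380-3p had 61, 180 and 112 counts, so the bovine name held 46 times the rat count in the untreated library and 3.99 and 5.26 times in the treated ones. The log2 ratio of rat miR-380-3p was 0.55 and 0.53, against falls of its bovine namesake. Rat miR-665 had 10, 154 and 79 counts and was called higher in both comparisons, at 7.89-fold (4.18 to 16.8) and 6.42-fold (3.31 to 13.9). The bovine miR-665 count was 7.7 times the rat one in the untreated library and 0.136 and 0.190 times in the treated ones. Rat miR-450b, both arms together, had 3459, 12903.5 and 7547 counts, so the bovine name equalled 36.0% of it in the untreated library and 2.28% and 3.19% in the treated ones.

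Rat miR-28-3p had 7309, 29144 and 16599 counts, with log2 ratios of 1.03, called higher, and 0.88. Rat miR-411-3p had 109, 462 and 329.5 counts and was called higher in both, at log2 ratios of 1.08 and 1.25. Rat miR-154, both arms, had 8, 37 and 15 counts, too few to be tested. In each of these the untreated library held the fewest rat counts and the most bovine ones. That library was also the shallowest, so the fewest rat counts do not show a lower share. By share, rat miR-154 had ratios to untreated of 2.37 (1.09 to 5.89) and 1.52 (0.61 to 4.15), the second interval holding 1. Rat miR-146a, both arms, had 2674, 3084 and 1401 counts and moved the same way as the bovine name, at log2 ratios of −0.76 and −1.23, the second called lower.

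For bta-miR-378, bta-miR-339a and bta-miR-92a the bovine and rat rows stayed in a nearly fixed proportion or the bovine one was very small. The bovine count equalled 0.714%, 0.861% and 0.969% of rat miR-378 in the untreated, IL-1α mix and IL-4 mix libraries. For miR-339 the proportions were 1.82%, 1.96% and 2.16%. For miR-92a they were 0.0212%, 0.0494% and 0.0395% of a rat miRNA with 103609, 204251 and 120300 counts. Over the 9 pairs with at least 50 counts on both sides, 6 bovine names were below their rat counterpart in log2 ratio in each comparison. In those pairs the bovine name was called lower 6 times in each comparison, and the rat one 0 times with the IL-1α mix and 1 time with the IL-4 mix. Of the bovine names, 3 reached 50 counts only in the untreated library and so could not be called higher. They are bta-mir-28-p3, bta-miR-665 and bta-miR-411c-3p, so the bovine and rat calls are a description and not a contrast. The bovine and the rat row of a pair come from the same library and may share reads.

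**Figure D3:**
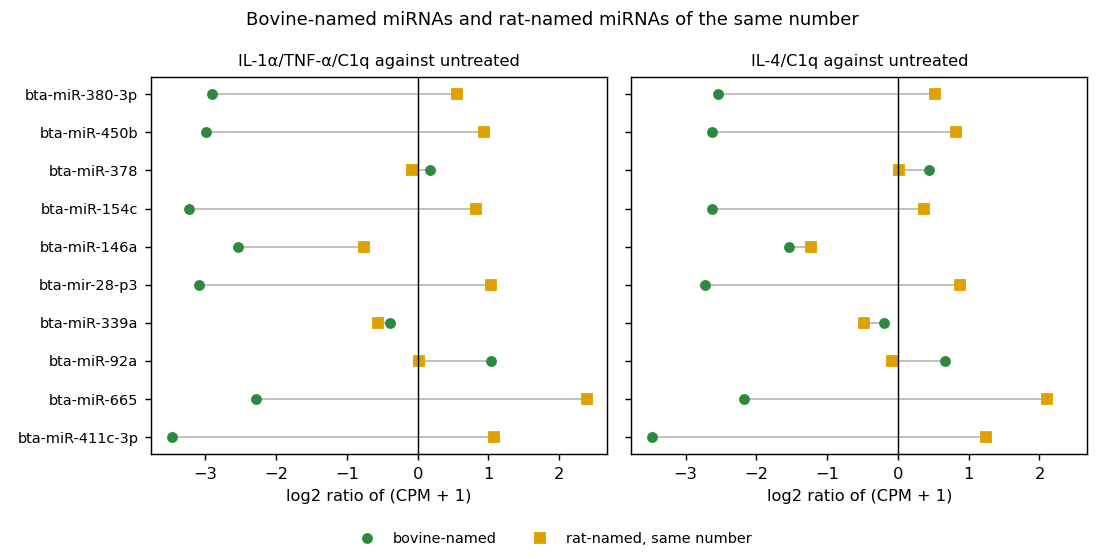
Log2 ratio of (CPM + 1) to the untreated library for 10 bovine names (circles) and the rat-named miRNAs of the same number (squares), joined by a line. In the left panel every bovine name below −2 but bta-miR-146a stands opposite a rat miRNA above 0, while for bta-miR-378 and bta-miR-339a both lie between −0.56 and 0.45.

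Between the treated libraries, bovine names differed little. The sums with and without a rat row were 1.30-fold (1.21 to 1.39) and 1.31-fold (1.20 to 1.43) higher with the IL-4 mix than with the IL-1α mix. Of 7 names with a rat row and 4 without, bta-miR-146a alone was called, higher with the IL-4 mix. Over all names 1.09% were called higher and 1.09% lower, and over rat-named miRNAs 0.282% and 0.845%.

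The 92 names under 50 counts were 19 with and 73 without a rat row. Those with a rat row had a median of 7 untreated counts, at most 43.5, and a median of 0 in both treated libraries, at most 15 and 16. Those without had a median of 7 untreated counts, at most 48, and a median of 0 in the treated ones, at most 15 and 14. Of them, 10 and 48 names were at 0 in both treated libraries. bta-mir-539-p3 had 43.5 untreated counts, bta-miR-323b-3p had 36 and bta-miR-342 had 29, and each was at 0 in both treated libraries. bta-mir-483-p5 had 39, 15 and 0 counts and bta-miR-411c-5p had 20, 5 and 6. A higher CPM than untreated was seen with both treatments in bta-miR-199c, with 6, 14 and 11 counts, and in bta-miR-378c, with 5, 11 and 13, both at the limit of counting. It was also seen in bta-mir-148c-p3, with 0, 8 and 10 counts, and in bta-miR-1434-5p, with 0, 15 and 12. bta-miR-185 had 7, 9 and 16 counts and was higher with the IL-4 mix.

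Row names record how a read differed from its database entry. Substitution tags stood on 50 of the 167 bovine rows, 29.9%, against 7.30% of 548 rat-named rows. Rows that matched their entry exactly were 20 of the 167 bovine rows and 40.5% of the rat-named ones, and rows naming a hairpin arm were 19.8% and 3.10%. With the IL-1α mix, the 33 untagged rows of names with a rat row were 7.24-fold lower (6.82 to 7.69). The 7 tagged rows were 1.88-fold lower (1.66 to 2.13), and 5.99-fold lower (4.78 to 7.55) without bta-miR-378. Among names with no rat row, the untagged rows were 9.92-fold lower (9.22 to 10.7). The tagged rows were 5.83-fold lower (5.10 to 6.67), and 8.85-fold lower (7.44 to 10.6) without bta-miR-11980. Single names thus carried most of the gap between tagged and untagged rows with the IL-1α mix. With the IL-4 mix, untagged rows of names with a rat row were 5.65-fold lower (5.30 to 6.03). The tagged ones were 1.40-fold lower, and 3.14-fold (2.54 to 3.89) without bta-miR-378, so a gap remained. Among names with no rat row the values were 7.42-fold untagged, 4.71-fold tagged, and 6.48-fold tagged without bta-miR-11980.

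Positions in these tags count from 1 at the 5′ end of the named entry. On rat-named rows with an unchanged 5′ end, the first base of 26 of 27 tags is the RefSeq base at that position. A row of bta-miR-146a carries A18G and G23T. The base to which A18G changes is the one that the rat miR-146a-5p sequence above holds there, and position 23 lies past the end of that sequence, which has 22 bases. A row of bta-miR-378 carries C22A, and position 22 lies past the end of rat miR-378a-3p, which has 21 bases. Of the tags on those rows, only A18G could thus be compared with these rat sequences. Other tags name a base that differs, such as C22A on a row of bta-miR-339a and G19A on one of bta-mir-483-p3. There the base after the change is not the one in the rat miRNA of that number. For 8 bovine names a row held the same values as a row of that number with another species prefix, for example bta-miR-450b and dno-miR-450b-5p, named for the armadillo, so such reads have no single species name.

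Some other miRNAs also differed from untreated, and their part in the result was not tested. Of 16 serum and blood-cell miRNAs listed, 12 were measured, summing to 53185, 57135 and 50701 CPM; 5 were called lower and 0 higher in each comparison, against 21.2% and 23.2% lower over all names, with median log2 ratios of −0.17 and −0.29. Others of the list had a higher CPM than untreated, 5 of 12 with the IL-1α mix and 4 of 12 with the IL-4 mix, among them miR-25-3p at 1.70-fold and 1.43-fold. Rat-named miR-122-5p, an abundant liver miRNA that circulates in plasma, had 44888, 11049 and 9508 counts and was 7.93-fold (7.76 to 8.09) and 5.81-fold (5.69 to 5.94) lower. For bta-miR-2284x the falls were 7.87-fold and 6.01-fold, and a link between these miRNAs was not tested. Other called members of the list fell by other factors, miR-486 by 5.50-fold and 5.36-fold and miR-144-5p by 71.5-fold and 18.1-fold. Red-cell miR-451-5p was 272-fold (198 to 384) and 283-fold (189 to 447) lower. The 10 epithelial miRNAs summed to 3701, 129 and 123 CPM, with all 9 tested called lower in both comparisons and median log2 ratios of −4.55 and −4.60. Among them miR-141-3p was at 0 in both treated libraries. Of those 9, 5 reached 50 counts only in the untreated library and so could not be called higher. The same holds for 3 of the 5 serum and blood-cell miRNAs called lower, miR-451-5p, miR-144-5p and miR-144-3p.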

How the data were processed

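The deposited estimated counts, called raw per the file headers, and a deposited signal, called normalized per the file headers and equal to the count times a constant per library, were taken as the authors gave them. Not given in the sources used here are the aligner, the counter, the miRNA database and the build. Fractions, with a tolerance of 1e-06, stood in 237, 140 and 151 rows of the untreated, IL-1α mix and IL-4 mix libraries; counts were rounded for totals and intervals. The 372 predicted candidates, 0.0662%, 0.0364% and 0.0345% of counts, were left out of the totals.

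Shares were computed per 1000000 miRNA-named counts, with exact conditional binomial 95% intervals (scipy 1.17.1, Python 3.11.15). Intervals and floors hold for counting error alone, as PCR can copy a molecule many times. Log2 ratios use CPM + 1, and medians take names with at least 50 counts in the highest library. Bounds against 0 use a floor of 5 counts per library, since 15 of 935, 9 of 753 and 7 of 663 whole values not shared between rows lay under 5; they are approximate. Names with a rat row were described if among the 15 highest in mean CPM or past the call rule with at least 200 counts, and names without one if they reached 50 counts; the others named are the exceptions in direction or detection, chosen after their values were seen. Members and lists were chosen with earlier results of these data known. The interval and calling steps were tested on simulated data. Alternative scalings were TMM factors (edgeR 4.0.16) and size factors (DESeq2 1.42.0), both in R 4.3.3; no model was fitted, as each condition has 1 library.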

Additional observations from a re-analysis of the deposited data

How the results depend on the processing

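The summed falls against untreated kept their direction and stayed past 2-fold in all 40 recomputations: with a rat row from 4.67-fold to 7.29-fold (IL-1α mix) and 3.59-fold to 5.65-fold (IL-4 mix), without one from 6.65-fold to 9.92-fold and 5.13-fold to 7.42-fold. The alternatives were other scalings, the highest row of a name, tagged rows, the most abundant name or value-sharing names left out, and a stricter rat counterpart; leaving out value-sharing names was chosen after seeing the data. In the other 20, between the treated libraries, ratios were 1.28 to 1.38. No single result changed sign, but the order of the sets with and without a rat row turned under the stricter counterpart. Counts called moved by over 1.5 times in 18 of 78 recomputations and medians in 10 of 78. In the order IL-1α mix, IL-4 mix and between treatments, a minimum of 10 counts called 15, 15 and 3 names with a rat row and 43, 42 and 4 without; no filter called 20, 19 and 4, and 71, 69 and 9. A minimum of 200 called 5 with a rat row and 3 and 3 without. Between treatments the 1 call with a rat row became 0 with a minimum of 200, a 4-fold minimum or tagged rows left out. Median log2 ratios with a rat row were −1.69 and −1.61 at a minimum of 10, −1.08 and −1.08 with no filter, and −1.35 and −1.08 with a pseudocount of 10 CPM; without a rat row they were −1.16 and −1.08 with no filter and −1.40 and −1.26 with that pseudocount. The cause of each move was not tested beyond the names each filter admits.

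No paired analysis was possible because each condition has 1 library. The size of any effect of treatment cannot be told apart from differences between the cultures or preparations. Most bovine names lay under 50 untreated counts, where a fall of this size ends near the lowest counts that the files hold.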

Other observations

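Names of other species with no rat row of the same number showed more than one pattern. The 28 human-named miRNAs with no rat row, miR-1246 left out, summed to 234, 41.9 and 46.4 CPM in the untreated, IL-1α mix and IL-4 mix libraries, 5.59-fold (5.06 to 6.19) and 5.05-fold (4.50 to 5.69) lower. The 3 goat- and sheep-named miRNAs with no rat row summed to 41.9, 1.42 and 3.98 CPM, 28.7-fold (17.8 to 49.2) and 10.5-fold (7.24 to 15.8) lower. Of these, chi-miR-1307-3p held the values of bta-miR-1307, and chi-miR-1307-5p the values of hsa-miR-1307-5p, so the groups are not separate.

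The 58 mouse-named miRNAs with no rat row were at 9449, 8007 and 7326 CPM, 1.18-fold (1.17 to 1.19) and 1.29-fold (1.28 to 1.30) lower. Of 25 tested, 6 were called lower and 2 higher with the IL-1α mix, and of 24 tested 5 and 2 with the IL-4 mix. Over all names 21.2% and 23.2% were called lower. A lower CPM than untreated was seen in 37 and 38 of the 58 names and a higher one in 20 and 17, with median log2 ratios over all 58 of −0.57 and −0.64.

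Single names of further species, chosen after their values were seen, resembled the bovine ones. The guinea pig name cpo-miR-432-5p had 770, 153 and 146 counts and was 9.82-fold (8.24 to 11.8) and 6.49-fold (5.43 to 7.80) lower, and bta-miR-432 fell too. cpo-miR-656-3p had 111, 34 and 18 counts and was 6.37-fold and 7.59-fold lower.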
